A study of Mus musculus with 72 samples.

Results

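The conducting airways of the lung are lined by an epithelium in which secretory cells and multiciliated cells work together to trap and clear inhaled material. Club cells secrete secretoglobins and also serve as progenitors for other airway cells, while goblet and gland cells release mucins and antimicrobial proteins. Multiciliated cells carry motile cilia, each built on a microtubule axoneme driven by dynein arms, and the transcription factor Foxj1 switches on the genes of motile cilia. The 10 genes followed here mark these cells: the club cell genes Scgb1a1 and Scgb3a2, the secretory genes Scgb3a1, Bpifa1, Muc5b and Reg3g, and the ciliated cell genes Foxj1, Tekt1, Dnah5 and Ccdc39. They were taken by name, through the transcript that each array probe is annotated to, and make up 10 of the 23787 named genes and 12 of the 56605 probes on the mRNA arrays.

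The mice were female C57BL/6 J animals aged 6 to 8 weeks that received a single exposure of the whole body to X-rays or a sham exposure (0 Gy). The lower doses were 1, 2 and 4 Gy and the higher ones 8 and 12 Gy. Lung and liver were taken 48 h later, with 3 mice at each dose, and the RNA was hybridized to 1-colour Agilent arrays, which gave 18 lung and 18 liver mRNA arrays. Lung was the tissue of interest, and liver, which has no airways, was the low reference. The RNA came from whole powdered tissue, so that fewer cells of a type and less RNA per cell cannot be told apart.

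The lung arrays lay on 3 slides that follow the dose. The first slide held all mice at 0 and 1 Gy, the second held those at 2 and 4 Gy and 2 of the 3 at 8 Gy, and the third held the remaining mouse at 8 Gy (mouse 25) and all mice at 12 Gy. The 4 arrays of the third slide were dimmer, with 54.1% to 54.8% of spots well above background against 59.2% to 64.0% on the other 14 lung arrays, and no spot was saturated. From 2 to 12 Gy the difference from 0 Gy lies between slides, so dose and slide cannot be told apart in these comparisons. Among the 3 sham mice, mouse 21 had the lowest value of all 10 genes, against 32.4% of all probes for which it was the lowest sham mouse. It had the lowest value of the 18 lung arrays for 8 of the 10, against 8.09% of all probes.

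All 12 probes were well above background on all 18 lung arrays. The plot of spot intensity by tissue shows how far the lung signal stood above the liver signal. In sham mice every one of the 10 genes was higher in lung than in liver by more than 1 on the log2 scale with an adjusted p below 0.05 in limma, which held for 35.5% of all probes in either direction. Scgb3a2, a secretoglobin of club cells, was 2219-fold higher in lung (log2 difference 11.12, SE 0.63, adjusted p = 6.42e-15 in limma), and Scgb3a1, a secretoglobin of airway secretory cells, was 1871-fold higher. Bpifa1, which encodes a secreted airway protein of the BPI fold family, was 150-fold higher, and the gel-forming mucin gene Muc5b was 165-fold higher. Muc5b was well above background on 1 and Scgb3a2 on 2 of the 3 sham liver arrays, so that their folds rest partly on background readings. Reg3g, which encodes an antimicrobial lectin, was not well above background on any sham liver array and was at least 628-fold higher in lung. The same held for the ciliated cell genes, with lower limits of 131-fold for Tekt1 (a tektin of the axoneme), 39.5-fold for Foxj1, 32.6-fold for Dnah5 (an outer arm dynein heavy chain) and 6.10-fold for Ccdc39 (part of the ruler that sets the spacing of axonemal arms). When the slide was a term of this model, 8 of the 10 genes still passed both thresholds, and Ccdc39 (1.84, adjusted p = 0.0803 in limma) and Dnah5 (1.75, adjusted p = 0.0801) did not.

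Scgb1a1, the main secretoglobin of club cells, was 727-fold higher in sham lung than in sham liver after quantile normalization. The log2 difference was 9.51, with a range of 7.27 to 12.2 over 10 alternative settings. Scgb1a1 was set by this normalization to the same value, 18.71, on the sham lung arrays, and its sham liver values spread widely (SD 2.51 on the log2 scale, n = 3). Its spot intensity in liver, not normalized, was 1882 in mouse 1, 575 in mouse 11 and 78.0 in mouse 21 at 0 Gy, and 2452 in mouse 16 at 12 Gy, where the labels do not say that a number shared by liver and lung is 1 mouse. On the other liver arrays it lay between 55.0 and 190.0. In the liver of mouse 16 the intensities of Bpifa1 (961), Scgb3a1 (385), Scgb3a2 (373) and Reg3g (131) were also the highest of the 18 liver arrays. The surfactant gene Sftpc, a marker of alveolar type 2 cells, read 552, 150 and 176 on the liver arrays of mice 1, 11 and 16, against 40.5 to 137 on the others. The summed level of the 9 alveolar type 2 genes on these 3 arrays was 36.8, 37.7 and 31.3, within the range of 28.6 to 44.9 over the liver arrays, and 5 to 7 of the 9 were well above background on a liver array. The part of lung tissue in these liver values was not tested. In the liver no member passed an adjusted p of 0.05 in limma at any dose, with 7 member probes tested, 0 at an unadjusted p below 0.05 at any dose, and 2 in the dose trend (Bpifa1 and Scgb3a1). For comparison, 0.0417%, 0.459%, 3.31%, 9.9% and 7.02% of all liver probes passed from the lowest to the highest dose, and 9.5% in the trend.

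**Figure D1:**
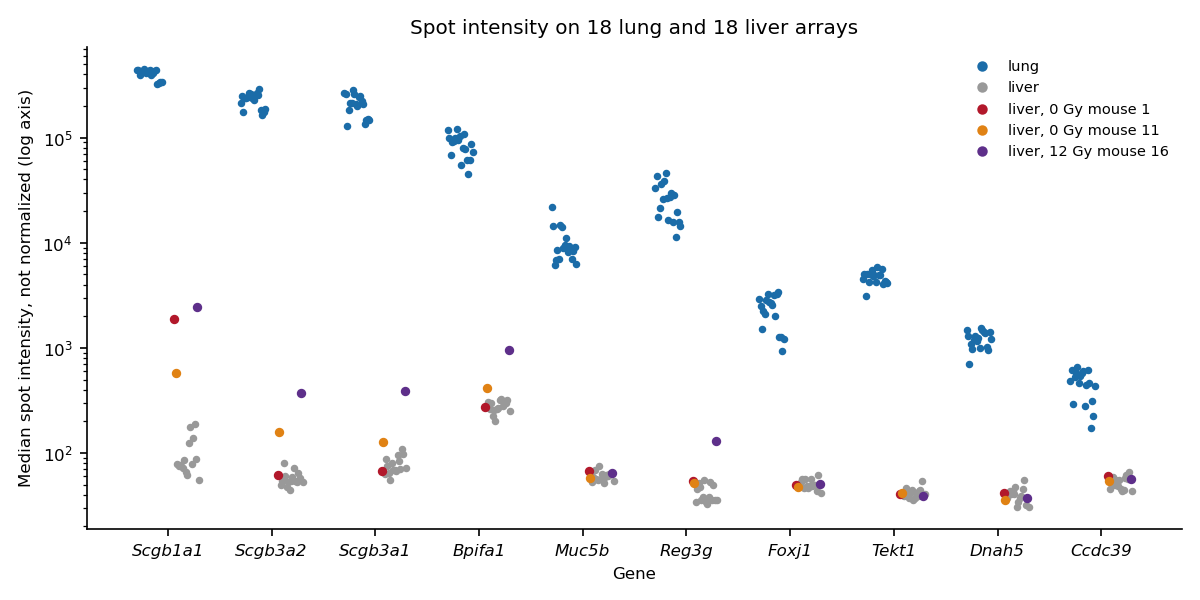
Median spot intensity before normalization (log axis) of the brightest probe of each gene on 18 lung arrays (blue) and 18 liver arrays (grey, with the liver arrays of mice 1, 11 and 16 in colour). Each point is 1 array, and the Scgb1a1 points of those liver arrays stand at 1882, 575 and 2452.

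Short stretches of promoter sequence are shown for genes described here, because many of the ciliated genes reported below as a group hold a motif that the choice of genes did not use. The X-box is the element bound by RFX transcription factors at ciliary genes, and its half-site GTTGCC was searched on both strands of RefSeq promoters (GRCm38.p6, from 250 bases before to 50 after the start of transcription). It was present in 12.5% of 32851 promoters, in 18 of 28 promoters of other ciliated genes (64.3%) and in 1 of 4 promoters of ciliated members, that of Tekt1. Some genes have several promoters and some have none here. The 28 promoters belong to 24 of the 28 listed genes, of which 17 had the half-site. Those of the ciliated members belong to Tekt1, Dnah5 and Ccdc39, and Foxj1, without a promoter, was not searched. The capitals mark the half-site on either strand, each window is written 5′ to 3′ on the strand of the gene, and a match is a description and not evidence of binding. Tekt1 (chr11:72361890-72361919, minus strand) has 2 of them in opposite orientation, 35 and 15 bases before the start. Tekt4 (chr17:25471586-25471615, plus strand), Dynlrb2 (chr8:116504952-116504981, plus strand) and Mcidas (chr13:112993661-112993690, plus strand) have the motif 8 bases after, 51 bases before and 195 bases before the start. Starts are those of the transcript whose promoter is given, which for Tekt1, Tekt4 and Mcidas lies inside the full span of the gene.
Tekt1: agGGCAACgttgcgtccgtccgGTTGCCat
Tekt4: caatgttccttaGGCAACcaggaaccttgc
Dynlrb2: acttcctgcctgGTTGCCtagcaacggggg
Mcidas: gggggaagccagGTTGCCaggttggttaac

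Among the secretory members the promoters of Bpifa1 and Reg3g hold TATAAA on the strand of the gene, shown here in capitals, as do 8.32% of all promoters. The match lies 29 bases before the start in Bpifa1 (chr2:154142839-154142868, plus strand) and 27 bases before it in Reg3g (chr6:78468884-78468913, minus strand).
Bpifa1: caactgccattcTATAAAagcggtgattct
Reg3g: ctcaagtcctacTATAAAaacagtcatctc

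Irradiation was followed first in the club cell genes. Scgb3a2 (chromosome 18, 43764301 to 43767399, GRCm38.p6) was the only member that passed an adjusted p of 0.05 at more than 1 dose. In sham mice 1, 11 and 21 its normalized log2 intensity was 17.35, 17.52 and 17.30, and at 1 Gy it was 17.82, 17.59 and 17.75. The 3 mice read 17.90, 17.90 and 17.73 at 2 Gy, 17.71, 17.85 and 17.94 at 4 Gy, 17.87, 17.96 and 18.24 at 8 Gy, and 18.24, 18.23 and 18.24 at 12 Gy. On these quantile-normalized values all irradiated mice were thus above all sham mice. The change from 0 Gy was 0.63 (SE 0.13, adjusted p = 0.0109 in limma) at 8 Gy and 0.84 (SE 0.13, adjusted p = 0.000676) at 12 Gy, a 1.79-fold level. At 1, 2 and 4 Gy the changes of 0.33, 0.45 and 0.44 did not pass (adjusted p = 0.839, 0.241 and 0.117 in limma), although each had an unadjusted p below 0.05. Within the first slide, which holds both groups, 1 Gy differed from 0 Gy by 0.33 (95% interval 0.07 to 0.58, adjusted p = 0.647 in limma).

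The 4 third-slide arrays all gave Scgb3a2 the 4th brightest probe of the array, and quantile normalization gives probes of equal rank equal values, which is why the 12 Gy values hardly spread. On values scaled to each array's 75th percentile instead, the change at 12 Gy was 0.65 (adjusted p = 0.0119 in limma) and that at 8 Gy 0.56 (adjusted p = 0.0739). The sham mice reached 8.16 on that scale, and the lowest mice at 1 and 2 Gy read 8.12 and 8.11. Mice at 1 and 2 Gy thus overlapped the sham mice there, and those at 4, 8 and 12 Gy did not.

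Scgb1a1 (chromosome 19, 9083642 to 9087956) was the brightest probe on every lung array, so quantile normalization set it to the same value on all of them, and it is given on the scale of log2 intensity relative to the array's 75th percentile. Sham mice 1, 11 and 21 read 9.0, 8.99 and 8.94, and mice at 1 Gy read 9.03, 9.02 and 9.01. Values were 8.96, 9.07 and 8.98 at 2 Gy, 9.12, 8.94 and 9.21 at 4 Gy, 9.07, 9.16 and 9.53 at 8 Gy, and 9.44, 9.82 and 9.39 at 12 Gy. The 4 highest values are the 4 arrays of the third slide. At 12 Gy the change was 0.57 (SE 0.15, adjusted p = 0.0142 in limma), a 1.49-fold level, on a scale where the median of all probes changed by 0.264 and 25.4% of probes had an adjusted p below 0.05. The change at 8 Gy was 0.28 (adjusted p = 0.368 in limma).

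**Figure D2:**
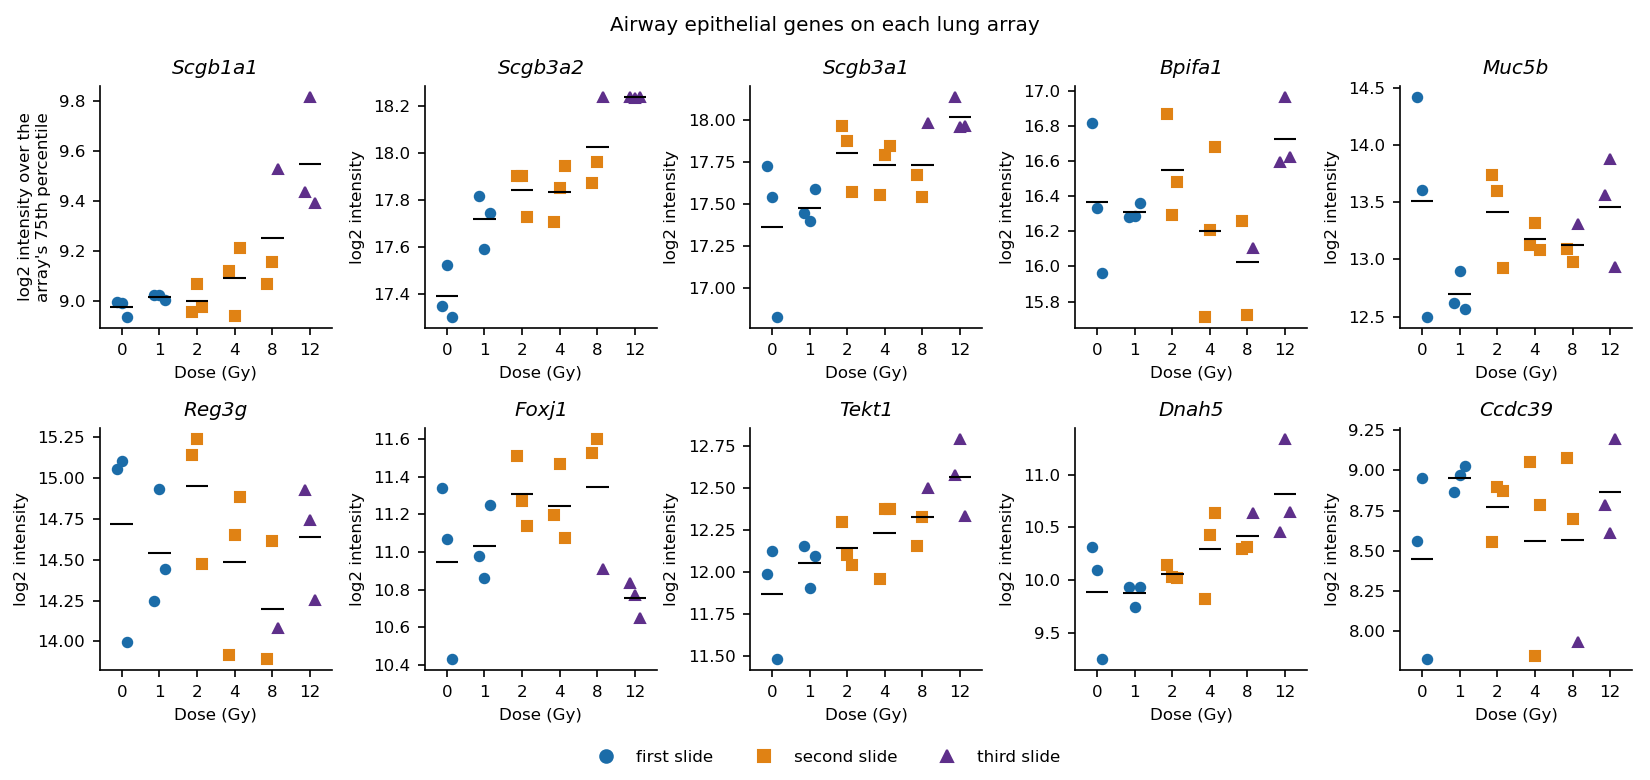
Log2 intensity of the 10 genes on each of the 18 lung arrays by dose in Gy, with 1 panel per gene, 1 point per mouse, the mean of each dose as a black line and the slide by colour and shape. Scgb1a1 is drawn relative to the array's 75th percentile and the others after quantile normalization. On the quantile-normalized values drawn, Scgb3a2 lies above all sham mice at every dose, and Foxj1 lies between 10.65 and 10.91 on the third slide.

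Of the 4 secretory members only Scgb3a1 passed a test. Scgb3a1 (chromosome 11, 49663595 to 49665118) read 17.73, 17.54 and 16.83 in sham mice 1, 11 and 21 and 18.13, 17.96 and 17.96 at 12 Gy. The groups did not overlap on these quantile-normalized values, and mouse 21 lay 0.71 below the next sham mouse. At the doses in between it ranged from 17.40 to 17.98. The change at 12 Gy was 0.65 (SE 0.20, adjusted p = 0.0337 in limma), and without mouse 21 it was 0.39 (adjusted p = 0.149). On values scaled to the 75th percentile the change was 0.43 (adjusted p = 0.187 in limma). The groups overlapped on that scale, with sham mice up to 8.29 and 12 Gy mice down to 8.17.

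Bpifa1, Muc5b and Reg3g had overlapping values at 0 and 12 Gy. Muc5b (chromosome 7, 141839059 to 141873089) read 14.42, 13.60 and 12.50 in sham mice, a range that covers all 15 irradiated mice, and 13.56, 13.88 and 12.93 at 12 Gy. Its 3 values at 1 Gy, 12.62, 12.90 and 12.57, lay at the lower end, with a difference from 0 Gy of −0.81 within the first slide (95% interval −1.62 to −0.00, adjusted p = 0.789 in limma). At 12 Gy the change was −0.05 (95% interval −0.83 to 0.73, adjusted p = 0.941 in limma), and a second, dimmer probe gave −0.27 without passing. Reg3g (chromosome 6, 78466269 to 78468874) read 15.06, 15.10 and 14.00 in sham mice and 14.93, 14.74 and 14.25 at 12 Gy, so that the groups overlapped. Its change was −0.08 (95% interval −0.80 to 0.64, adjusted p = 0.895 in limma). Bpifa1 (chromosome 2, 154142880 to 154149217) read 16.82, 16.33 and 15.96 in sham mice and 16.59, 16.96 and 16.62 at 12 Gy, also with overlap, and changed by 0.36 (95% interval −0.18 to 0.90, adjusted p = 0.34 in limma).

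The ciliated cell genes split into a pair that rose at 12 Gy and a pair that did not pass. Tekt1 (chromosome 11, 72344717 to 72362442) read 11.99, 12.13 and 11.48 in sham mice 1, 11 and 21 and 12.58, 12.79 and 12.33 at 12 Gy. All 3 mice at 12 Gy lay above the sham mice. The change was 0.70 (SE 0.19, adjusted p = 0.0169 in limma), a 1.62-fold level. Dnah5 (chromosome 15, 28154854 to 28472045) read 10.31, 10.09 and 9.25 in sham mice and 10.45, 11.34 and 10.65 at 12 Gy. The groups did not overlap, although the lowest 12 Gy mouse was only 0.14 above the highest sham mouse. The change of 0.93 was the largest of the 10 genes (SE 0.28, adjusted p = 0.0268 in limma), a 1.90-fold level.

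Foxj1 (chromosome 11, 116330704 to 116335499) followed another course. It read 11.34, 11.07 and 10.43 in sham mice and 10.98, 10.86 and 11.25 at 1 Gy. Values were 11.51, 11.27 and 11.14 at 2 Gy, 11.20, 11.47 and 11.07 at 4 Gy, 11.52, 11.60 and 10.91 at 8 Gy, and 10.83, 10.77 and 10.65 at 12 Gy. The 8 arrays of the second slide lay at or above 11.07, and the 4 of the third slide at or below 10.91, including the third-slide mouse at 8 Gy. No comparison with 0 Gy passed, and the change at 12 Gy was −0.19 (95% interval −0.68 to 0.29, adjusted p = 0.588 in limma).

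Ccdc39 (chromosome 3, 33810757 to 33844325) had 2 probes that did not behave alike. The brighter probe read 8.56, 8.96 and 7.83 in sham mice and 8.78, 8.61 and 9.19 at 12 Gy, with overlap and a change of 0.41 (95% interval −0.31 to 1.13, adjusted p = 0.414 in limma). At 8 Gy it changed by 0.12 (adjusted p = 0.918 in limma), while the dimmer probe rose by 0.95 (adjusted p = 0.0187), with 6.57, 6.64 and 7.39 against 6.12, 6.06 and 5.59 in sham mice. At 12 Gy the dimmer probe changed by 0.45 (adjusted p = 0.151 in limma). No direction is given for Ccdc39 on that account.

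In all, 5 of the 10 genes (Scgb1a1, Scgb3a2, Scgb3a1, Tekt1 and Dnah5) had an adjusted p below 0.05 at 12 Gy in limma, all of them higher, with Scgb1a1 read on the 75th percentile scale and the others after quantile normalization. Either scale alone gave 4, since quantile normalization leaves Scgb1a1 constant and Scgb3a1 did not pass on the 75th percentile scale. Of all 43979 lung probes 21.3% passed after quantile normalization, 13.5% upward and 7.8% downward, and 25.4% passed on the 75th percentile scale. At 8 Gy 1 gene passed, Scgb3a2, where 4.25% of all probes did. At 1, 2 and 4 Gy 0 of the 10 passed in limma, where 0.025%, 0.55% and 2.18% of probes did, and 2, 2 and 1 of the genes had an unadjusted p below 0.05. No gene reached the study's threshold of an absolute log2 change above 1 with an adjusted p below 0.05 at any dose, a call that 0.0227%, 0.443%, 1.46%, 2.52% and 7.32% of probes received from the lowest to the highest dose. The median change of the 4 ciliated members at 12 Gy was 0.56, against 0.0948 for all probes tested. In a linear trend over dose the same 5 genes passed, again 4 on either scale alone, with 30.7% of all probes passing (34.4% on the 75th percentile scale) and changes over 12 Gy of 0.91 for Dnah5 (adjusted p = 0.00279 in limma), 0.68 for Scgb3a2, 0.59 for Tekt1, 0.56 for Scgb1a1 and 0.50 for Scgb3a1. None of the 10 passed in the trend when slide was added to the model or when the third slide was left out, and 1 did when liver and lung were fitted together.

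Both ends of the 12 Gy comparison rested on single mice for some of these genes. Without sham mouse 21, Dnah5 changed by 0.61 (adjusted p = 0.124 in limma) and Tekt1 by 0.51 (adjusted p = 0.0797), and 2 of the 10 genes passed. Without mouse 16 at 12 Gy, Dnah5 changed by 0.66 (adjusted p = 0.126 in limma), Tekt1 by 0.59 (adjusted p = 0.0695) Scgb3a1 by 0.69 (adjusted p = 0.0654) and Scgb1a1 by 0.44 (adjusted p = 0.0618), and only Scgb3a2 passed. With the slide as a random block only Scgb3a2 passed at 12 Gy. When liver and lung were normalized and fitted together, only Tekt1 passed (0.76, adjusted p = 0.0236 in limma), and Scgb3a2 changed by 0.85 (adjusted p = 0.397).

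**Figure D3:**
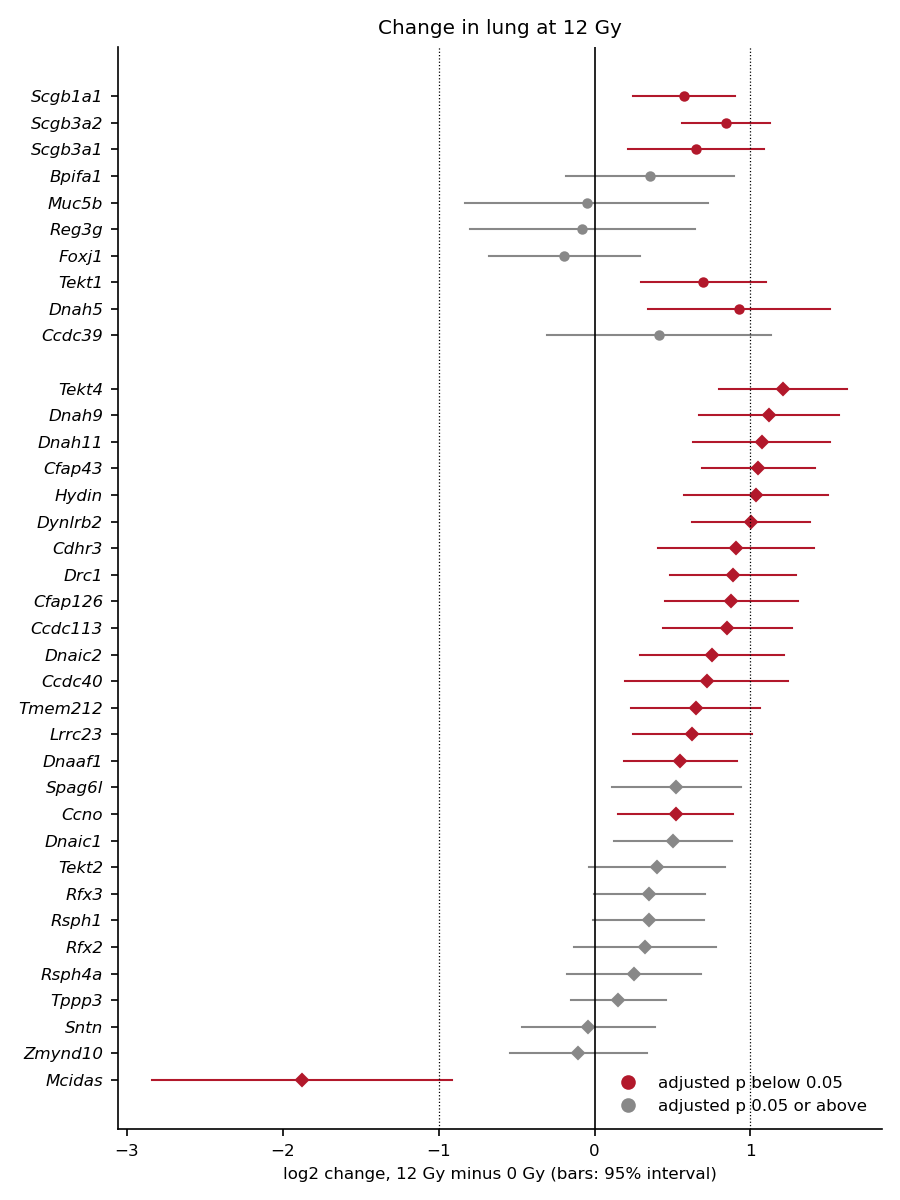
Log2 change in lung at 12 Gy minus 0 Gy with 95% intervals for the 10 genes (circles) and 27 other ciliated cell genes (diamonds), red where the adjusted p was below 0.05, with dotted lines at an absolute change of 1. Scgb1a1 is on the 75th percentile scale. Of the other ciliated genes 24 lie to the right of 0, and of the 3 to the left only Mcidas, at −1.88, had an adjusted p below 0.05.

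A list of 28 other genes of multiciliated cells, of which 27 could be tested, showed where Tekt1 and Dnah5 stood among their kind. At 12 Gy 16 of the 27 rose, 1 fell and 10 did not pass, beside 13.5% of all probes that rose and 7.8% that fell. The median change was 0.63 against 0.0948 for all probes. Tekt4, another tektin, rose by 1.21 (SE 0.19, adjusted p = 0.000718 in limma), and the outer arm dynein heavy chains Dnah9 and Dnah11 rose by 1.12 and 1.07 (adjusted p = 0.0023 and 0.00256). Dynlrb2, a dynein light chain, rose by 1.01 (adjusted p = 0.0015 in limma). Cfap43, a protein of the axoneme, rose by 1.05 (adjusted p = 0.000801 in limma). In sham mice Cfap43 read 11.84, 11.65 and 11.21, and at 12 Gy it read 12.68, 12.57 and 12.62. At 1 Gy, on the slide that also holds the sham mice, it read 11.71, 11.69 and 11.91, which overlapped the sham mice. All 9 mice at 2, 4 and 8 Gy (12.09 to 12.49), on other slides, lay above the sham mice. Cfap43 passed at 8 Gy (0.85, adjusted p = 0.00729 in limma), where dose and slide cannot be told apart. Tekt4 read 11.13, 11.05 and 10.71 in sham mice and 11.99, 12.55 and 11.98 at 12 Gy. The sham mouse 21 was the lowest of the 3 sham mice for 25 of the 27 genes, against 32.4% of all probes, and without it 9 of the 27 rose. Without mouse 16 at 12 Gy 9 rose, and with the slide as a random block 4 did.

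At 1 and 2 Gy 0 of the 27 passed in limma (0 and 5 at an unadjusted p below 0.05), and at 4 and 8 Gy 1 did. Of all probes 0.025%, 0.55%, 2.18% and 4.25% passed at these 4 doses. The summed level of the list, in units of the array's 75th percentile, was 181 to 219 in sham mice, 218 to 236 at 1 Gy, 231 to 254 at 2 Gy, 226 to 277 at 4 Gy, 235 to 315 at 8 Gy and 299 to 408 at 12 Gy. The 12 Gy range did not overlap the sham range. In the trend over dose 19 of the 27 rose and 1 fell, where 19.6% of all probes rose and 11% fell. When slide was added to the trend model 0 passed, and 1 rose when the third slide was left out.

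Mcidas, which encodes a regulator that commits cells to the multiciliated fate, was the gene that fell. It read 10.22, 10.11 and 9.84 in sham mice, between 9.68 and 10.51 in all mice at 1, 2 and 4 Gy, and 10.24, 10.24 and 7.74 at 8 Gy. At 12 Gy it read 8.08, 8.28 and 8.18. The low values are the 4 arrays of the third slide. At 8 Gy the third-slide mouse was 2.50 below the second-slide mice (adjusted p = 5.73e-05 in limma, with the lone array assumed to vary like the rest), and within the third slide 12 Gy differed from 8 Gy by 0.44 (adjusted p = 0.536). For the fall of 1.88 at 12 Gy (adjusted p = 0.00942 in limma) dose and slide cannot be told apart.

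Of 12 other club cell genes tested at 12 Gy, 3 rose, 0 fell and 9 did not pass, beside 13.5% of all probes that rose and 7.8% that fell. Their median change was 0.15 against 0.0948 for all probes, and 0.15 against 0.264 on the 75th percentile scale. The uroplakin gene Upk3a rose by 0.74 at 8 Gy (adjusted p = 0.0481 in limma) and 0.73 at 12 Gy (adjusted p = 0.018), and Aldh1a1, a retinaldehyde dehydrogenase, rose by 0.51 at 12 Gy. In the trend 3 rose and 2 fell. Pigr, the receptor that carries polymeric antibodies across epithelium, fell by 1.02 over 12 Gy (adjusted p = 0.037 in limma). Pigr was lower on the 4 third-slide arrays (6.95 to 8.40) than on most others (8.25 to 9.42), and without that slide its trend was 0.47.

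Of 12 other secretory and gland cell genes 10 could be tested, and at 12 Gy 2 rose, 1 fell and 7 did not pass, beside 21.3% of all probes that passed, with a median of −0.01 against 0.0948. Sult1d1, a sulfotransferase, rose by 1.01 (adjusted p = 0.00468 in limma), from 11.09, 11.25 and 10.66 to 11.62, 12.36 and 12.04. Msln, which encodes mesothelin, rose by 0.60 and is also a gene of the mesothelium. Tff2, a trefoil peptide of mucous cells, fell by 1.55 (SE 0.39, adjusted p = 0.0119 in limma). Its values were 12.61, 12.90 and 11.76 in sham mice, 11.83, 12.38 and 11.95 at 1 Gy, and 12.96, 12.52 and 11.64 at 2 Gy. They were 10.98, 11.92 and 12.20 at 4 Gy, 11.33, 10.79 and 11.39 at 8 Gy, and 10.85, 11.35 and 10.43 at 12 Gy. Every mouse at 8 and 12 Gy lay below every sham mouse, but the sham mice are all on another slide, so dose and slide cannot be told apart. The 12 Gy call of Tff2 was lost in 1 of 9 alternative settings and in 1 of the 18 fits that left out a mouse. In the trend Tff2 fell by 1.58 (adjusted p = 0.000802 in limma). The trend call of Tff2 was lost in 2 of 11 alternative settings, among them the fit without the third slide, with the direction kept. Clca1, which goblet cells secrete with mucus, fell by 2.10 in the trend (adjusted p = 0.0475 in limma), but ranged from 9.31 to 13.30 among sham mice alone, and the call was lost in 15 of the 18 fits that left out a mouse.

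Comparisons were also made inside a slide. The third-slide mouse at 8 Gy is a lone array, assumed to vary like the other groups, so that a lack of calls in comparisons with it says little. In limma 0 of the 10 genes passed an adjusted p of 0.05 in any of them. The share of all probes that passed was 0.0432% for 1 against 0 Gy, 0.0091% for 4 against 2 Gy, 0.503% for 8 against 2 Gy, 0.0136% for 8 against 4 Gy and 0.362% for 12 against 8 Gy. On the 75th percentile scale, on which Scgb1a1 was read, the shares in the same order were 0.0296%, 0.0091%, 0.421%, 0.0159% and 0.148%. At an unadjusted p below 0.05 there were 2 genes in the first of these (Muc5b and Scgb3a2), 1 in the last (Ccdc39) and 0 in the others. Between 2 and 8 Gy on the second slide, Scgb3a2 differed by 0.08 (95% interval −0.21 to 0.36), Tekt1 by 0.09 (−0.35 to 0.53) and Dnah5 by 0.24 (−0.42 to 0.91). Bpifa1 and Reg3g differed by −0.56 and −0.70. Between 8 and 12 Gy on the third slide, where 8 Gy was 1 mouse, Scgb1a1 differed by 0.02, Scgb3a2 by −0.00, Scgb3a1 by 0.03, Tekt1 by 0.07 and Dnah5 by 0.18.

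At 8 Gy itself, the third-slide mouse was higher than the second-slide mice by 0.41 for Scgb1a1, 0.32 for Scgb3a2, 0.38 for Scgb3a1, 0.26 for Tekt1 and 0.33 for Dnah5, and lower by 0.65 for Foxj1 (a difference of −0.65). None passed in limma, with 1 array against 2 and the spread taken from all groups, where 3.76% of all probes did (2.95% on the 75th percentile scale), and 0 of the 10 had an unadjusted p below 0.05. In each of the 5 genes that rose at 12 Gy the third-slide 8 Gy mouse read above both second-slide 8 Gy mice. The 95% intervals of the differences between 12 and 8 Gy ran from −0.36 to 0.36 for Scgb3a2 and from −0.66 to 1.02 for Dnah5.

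**Figure D4:**
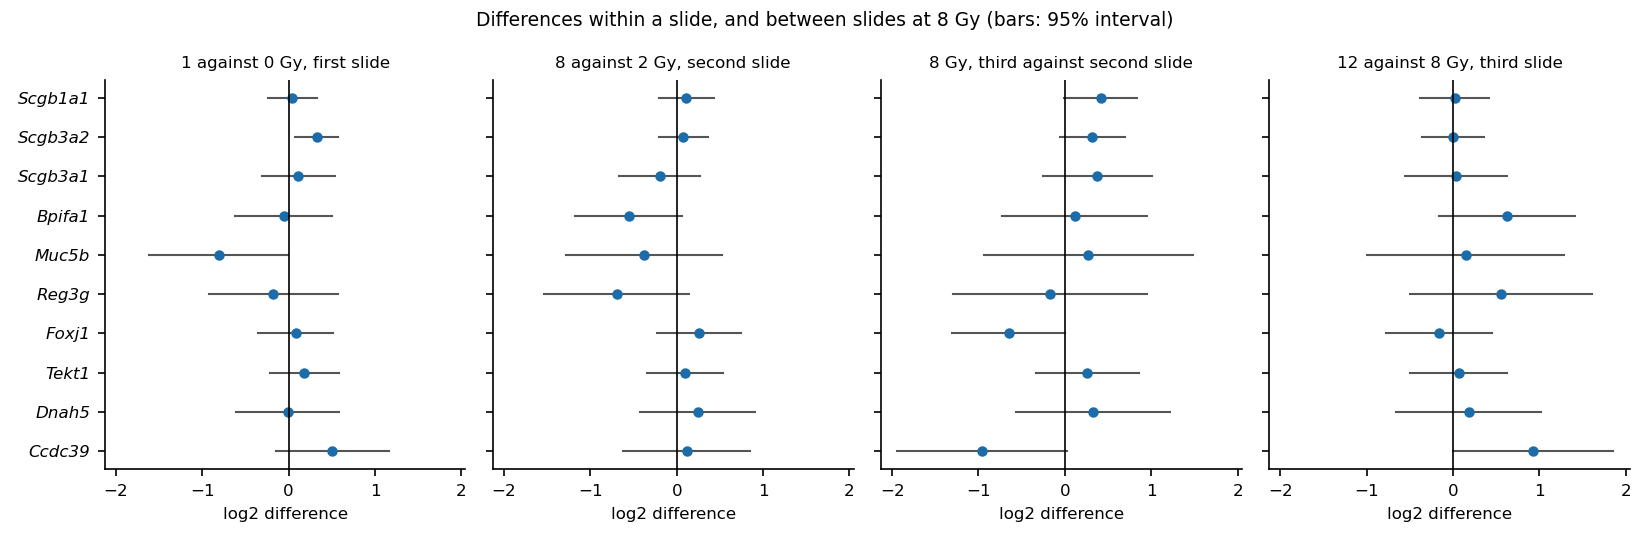
Log2 differences with 95% intervals for the 10 genes in comparisons inside 1 slide (1 against 0 Gy, 8 against 2 Gy, 12 against 8 Gy) and between slides at 8 Gy. Scgb1a1 is on the 75th percentile scale. The intervals of Scgb3a2 for 1 against 0 Gy and of Ccdc39 for 12 against 8 Gy lie above 0, and none passed after adjustment.

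Over the 18 lung arrays the members that rose also varied together. For the 9 genes other than Scgb1a1, 7 of 36 pairs had an adjusted permutation p below 0.05 for Pearson's r (100000 resamples, two-sided). Tekt1 and Dnah5 were the closest pair, with r = 0.92 and rho = 0.88 (adjusted permutation p = 0.00036 for both), r = 0.81 without the 2 arrays farthest from the median of Tekt1, and r = 0.85 in deviations from the dose means. Within the first and second slides r was 0.83 and 0.87, and the third holds too few arrays. Tekt1 was also correlated with Scgb3a2 (r = 0.87, rho = 0.88, and 0.71 and 0.79 within the slides) and Scgb3a1 (r = 0.85, rho = 0.72, and 0.87 and 0.47). Scgb3a1 and Scgb3a2 had r = 0.78 over all arrays, but 0.38 and 0.49 within the slides.

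Muc5b and Reg3g had r = 0.61 (adjusted permutation p = 0.0336) and rho = 0.58 (adjusted permutation p = 0.0596), with 0.79 and 0.65 within the slides. Foxj1 and Ccdc39 were in none of the 7 pairs, and r between Foxj1 and Tekt1 was 0.11 over all arrays but 0.81 within the first slide and 0.40 within the second. Arrays of a slide share their hybridization, and mice of a dose their exposure, so these are not independent of the differences above.

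**Figure D5:**
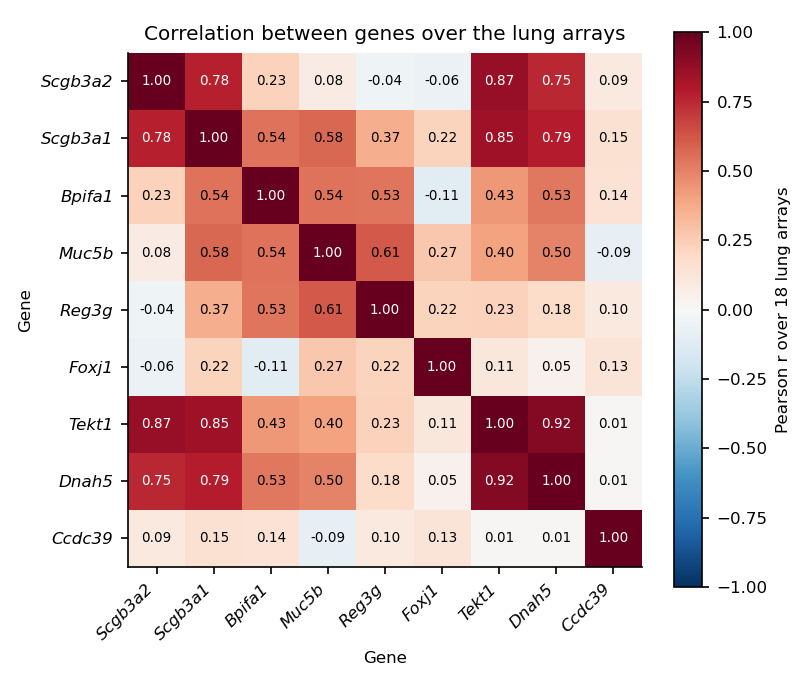
Pearson r between the log2 intensities of 9 of the genes over the 18 lung arrays, with both axes listing genes and colour running from −1 to 1. Scgb3a2, Scgb3a1, Tekt1 and Dnah5 correlate with each other at 0.75 to 0.92, while Foxj1 and Ccdc39 reach at most 0.27 and 0.15 with any other gene.

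The genes whose pattern over the 18 arrays was most like the mean of the 4 ciliated members were 1700088E04Rik (r = 0.90), 6820408C15Rik (0.90), Cfap100 (0.89), Spata17 (0.88) and Rsph9 (0.88), out of 18913 probes well above background on every lung array. For the 2 club cell members, on the 75th percentile scale, they were 4930579K19Rik (r = 0.97), Tmem205 (0.97), Cdpf1 (0.97), 4930503H13Rik (0.97) and Ces1d (0.96).

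Markers of other cells that a lung sample may hold were read on the same arrays. Summed levels are in units of the array's 75th percentile, and genes that rose or fell are counted after quantile normalization. All 9 alveolar type 2 genes were well above background on every lung array, with a summed level of 1164 to 1346 in sham mice and 1001 to 1384 at 12 Gy. Of these 9 genes 1 rose and 1 fell at 12 Gy in limma. Among 8 alveolar type 1 genes 3 rose and 0 fell, beside 13.5% of all probes that rose and 7.8% that fell. The 8 airway basal cell genes summed to 7.13 to 21.7 in sham mice and 6.79 to 43.6 at 12 Gy. Of these genes 1 rose and 2 fell at 12 Gy, beside 13.5% and 7.8% of all probes. Krt17 fell by 1.01 (adjusted p = 0.0225 in limma), and did not pass in 3 of the 18 fits that left out a mouse. Genes of oesophageal squamous epithelium summed to 5.82 to 77.7 in sham mice and 10.5 to 25.1 at 12 Gy, with 3 to 7 of 7 well above background. Hepatocyte genes summed to 5.58 to 16.7 in sham mice, 6.30 to 29.1 at 12 Gy and 159 in mouse 24 at 4 Gy. The part of these cells in the airway values was not tested.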

How the data were processed

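RNA from lung and from liver, for each tissue from 3 mice at each of 6 doses, was amplified from poly(A) RNA. It was measured on 36 one-colour Agilent mRNA arrays, out of 72 arrays in the series. Each array table deposited by the authors holds, per spot, the median pixel intensity and that of the local background, without normalization, from Agilent Feature Extraction 11.5.1.1. The processed signal in the same deposited tables, and the deposited series values, whose procedure is not given in the sources used here, served as alternatives.

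The tools were limma 3.58.1, statmod 1.5.0 and the data.table package (1.17.8), run in R 4.3.3, with matplotlib 3.10.9 for figures. Intensities were background-corrected by normexp with an offset of 0, quantile-normalized over the 18 arrays of a tissue (over 36 arrays for lung against liver), log2-transformed and averaged over the spots of a probe. Scgb1a1 was read between lung doses after scaling to each array's 75th percentile, and against liver and within liver after quantile normalization. Probes were kept if any array had them well above background, and were tested with empirical Bayes moderation, the 6 dose groups sharing 1 estimate of the spread, and Benjamini-Hochberg adjustment over all probes. All adjusted p values other than those of correlations come from limma. A gene was called at an absolute log2 change above 1 and an adjusted p below 0.05. Where groups of mice are said not to overlap, the share of all probes that separate in this way is not given. Where liver was not well above background a lower limit of the fold is given, against the higher of the probe's own signal and the lowest signal well above background on each array. The statistics were tested on simulated data. Between 46.1% and 64.0% of spots on an array were well above background, and 3 arrays per group limit the precision. Each array is 1 mouse, so p values measure the spread between mice.

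Members and lists were chosen with earlier results of these data known. Genes were named through RefSeq transcripts, which named 61.1% of probes, and RefSeq positions and promoters are those of GRCm38.p6. Named were all members by their brightest lung probe, every called gene of the lists of other club, secretory and ciliated genes (the 5 largest changes where more were called), the 5 genes most like the ciliated and the club members, and up to 2 genes of a marker list. Upk3a, Aldh1a1, Msln and Dynlrb2 were picked after their values were seen, and 1 further gene of the lists is not reported here. The sample numbers shared by lung and liver were checked for pairing: over 18160 probes, deviations from the group means correlated above 0.1 in 3 of 18 same-numbered pairs (r from −0.14 to 0.25). The same-numbered array was the best match in 9 of the 18. Tissues of 1 mouse need not deviate together, so this check cannot decide whether a shared number is 1 mouse. The numbers were not used as pairs in the main fits. Alternatives were the offset, signal, scaling, filter, slide, choice of probe, a joint fit of both tissues and leaving out each mouse. Leaving out the third slide, comparing within slides, a slide term between tissues, leaving out 2 liver arrays and scaling Scgb1a1 were added after seeing the data.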

Additional observations from a re-analysis of the deposited data

How the results depend on the processing

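All 10 genes were called between sham lung and sham liver when each mouse was left out, and with the sample number as a replicate block (10), without both liver arrays of mice 1 and 11, and under every other setting except the slide as a term (8). In the liver 0 member probes passed under any setting. At 12 Gy the number of members with an adjusted p below 0.05 (5) fell to 1 with the slide as a random block (Scgb3a2) and when liver and lung were fitted together (Tekt1), and ranged from 1 to 5 when each mouse was left out. At 8 Gy it was 0 with the processed signal, the series values, 75th percentile scaling, the slide as a random block and the joint fit, and 0 to 1 when each mouse was left out (0 without sham mouse 21). At 1, 2 and 4 Gy an offset of 50 gave 1. The count of members called at any dose was 1 with the processed signal and 0 to 1 when each mouse was left out (1 without mouse 1, 11, 6 or 26). In the trend the count of 5 fell to 0 with the slide as a term and without the third slide and to 1 in the joint fit, and was 4 to 5 with mice left out. The 16 other ciliated genes that rose at 12 Gy became 4 with the slide as a random block and 9 in the joint fit, with 9 to 16 when mice were left out, and the 19 in the trend became 0 with the slide as a term, 1 without the third slide and 11 in the joint fit, with 12 to 19 when mice were left out (12 without mouse 16). Correlated pairs numbered 16 with the processed signal, 15 with the series values and 11 with 75th percentile scaling. The cause of these shifts was not tested.

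Some changes turned sign, and none passed after it. With the processed signal these were Reg3g (0.16), Foxj1 (0.0504) and Muc5b (0.26) at 12 Gy and Foxj1 in the trend (0.037). With the series values they were Reg3g (0.083) and Muc5b (0.18), and with 75th percentile scaling Reg3g (0.073) and Muc5b (0.23). When slide was added to the trend model, Scgb3a1 (−0.24), Foxj1 (0.34), Muc5b (−0.73), Bpifa1 (−0.45), Mcidas (0.18) and Pigr (0.82) turned, of which Scgb3a1, Mcidas and Pigr had passed without it, and without the third slide Foxj1 (0.85), Muc5b (−0.30), Bpifa1 (−0.62), Mcidas (0.42) and Pigr (0.47) did. Leaving out each mouse gave ranges at 12 Gy of −0.44 to 0.12 for Reg3g, −0.45 to 0.00296 for Foxj1 and −0.55 to 0.41 for Muc5b, and in the trend of −0.0599 to 0.21 for Ccdc39, −0.0275 to 0.41 for Muc5b and −0.0362 to 0.25 for Bpifa1. The slope of Clca1 lost its call in 15 and that of Pigr in 6 of the 18 fits that left out a mouse.

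Over all probes, 3220 called at 12 Gy became 1676 with an offset of 50 and 1344 with the slide as a random block, 1107 at 8 Gy became 688 with that block, and 3102 in the trend became 1552 with the offset, 5013 with the processed signal, 4691 with the series values, 133 with the slide as a term and 1860 without the third slide. Of the probes called at 12 Gy 41.3% were higher, against 62.0% with 75th percentile scaling and 28.1% with the series values, and that scaling shifted the median of all probes to 0.264. A slide term for 2 to 12 Gy against 0 Gy could not be fitted.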
